A study of Mus musculus with 6 samples.

Results

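Axon guidance ligands and receptors were examined in L4/5 dorsal root ganglia (DRGs), which house the sensory neurons of the sciatic nerve with their glia, vessels and connective tissue. The 69 genes were taken by symbol from 24623 measured genes: class 3 semaphorins (7), membrane semaphorins of classes 4 to 7 (13), neuropilins (2), plexins (9), ephrin-A (5) and ephrin-B ligands (3), EphA (9) and EphB receptors (5), Slits (3), Robo receptors (4), netrins (4) and the netrin receptors Dcc and Unc5a to Unc5d (5). This makes 35 ligands and 34 receptors, and the rule uses symbols, not expression values. Adult male wild-type C57BL/6 mice aged 8 to 12 weeks received either LBP, a polysaccharide extract of wolfberry, at 100 mg/kg, or PBS, the saline vehicle, by mouth for 13 days. The sources mention no nerve injury for these ganglia. Each group had 3 arrays (GeneChip Mouse Gene 2.0 ST), and per the methods the ganglia came from 3 groups with 3 mice in each, RNA was taken per group, and 3 independent array experiments were run. This wording can be read as 1 array per pool of mice but leaves it unsettled, and p-values measure the spread between arrays. The treatment protocol given for the PBS samples mentions LBP, while their titles and treatment labels give PBS, and the titles were followed.

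Guidance cues steer growing axons by attraction or repulsion. Class 3 semaphorins are secreted. Most of them act on neuropilins, which bind them, together with plexins, which signal into the cell. Most semaphorins of the other classes bind plexins directly. Ephrins sit on the cell surface and bind Eph receptor tyrosine kinases on the neighbouring cell, Slits act on Robo receptors, and netrins act on Dcc, mostly as attractants, or on Unc5 receptors, mostly as repellents. In the adult, the same genes also serve vessels, glia and connective tissue, so that a whole ganglion mixes their RNA from many cell types. Fewer cells of a type and less RNA per cell cannot be told apart in such samples.

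The arrays were alike in scale, with medians of 6.45 to 6.46 and correlations of 0.990 to 0.994 between arrays. All 14 markers of DRG neurons lay above the upper quartile of every array, as did 10 of 11 Schwann cell and 9 of 10 satellite glia markers. So did 7 of 14 fibroblast and 3 of 12 endothelial and pericyte markers. The count was 0 of 11 for macrophage, 0 of 12 for central nervous system and 0 of 12 for skeletal muscle markers. Single arrays could still pass it: the muscle gene Myh4 did so on 3 arrays (9.78 on PBS replicate 1), and Myh1 on 0. LBP replicate 2 stood apart from the other arrays: central nervous system markers lay at a median of 0.90 above the PBS mean there, against -0.07 to 0.07 elsewhere, and skeletal muscle markers at -0.997, although PBS replicate 2 was also low in the latter (-0.76). Of the 69 members, 17 lay above the upper quartile on every array, 2 (Sema3a and Robo3) below the lower quartile on every array, and 50 met neither condition. Intensity depends on the probes of each gene, so that levels of different genes were not compared.

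The groups differed little across these genes. Nrp1, Efna4 and Epha3 had lower mean values after LBP, and Epha7 and Unc5b had higher ones, each with an unadjusted p under 0.05 from limma, a linear model per gene that borrows the spread from all genes. These 5 of 69 genes were 7.25%, where 4.72% of all genes reached the same p. The count rested on single arrays. It was 2 without PBS replicate 2, where 4.045% of all genes reached that p. It was 3 without LBP replicate 1, PBS replicate 1 or PBS replicate 3 (5.06%, 4.63% and 3.93% of all genes). The 3 lower members (4.35% of 69) stand beside 2.65% of all genes, and the 2 higher ones (2.90% of 69) beside 2.07%. After Benjamini-Hochberg adjustment over all genes, 0 members passed 0.05, the lowest adjusted p being 0.999, and 0.00812% of all genes did. The median log2 fold change (LBP minus PBS) of the members was -0.01, with 31 above 0 and 38 below, beside a median of -0.00 over all genes. Log2 fold changes ran from -0.30 (Nrp1) to 0.28 (Epha7), so that no member differed by more than 1.23-fold between the group means.

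The intervals around these values were narrow enough to bound most of them. The standard error of a member's log2 fold change had a median of 0.12, between 0.09 and 0.19. In 62 of 69 members the whole 95% interval lay between -0.5 and 0.5 on the log2 scale, which is a 1.41-fold difference either way. The exceptions were Sema3d, Sema4g, Sema6b, Nrp1, Efna4, Epha3 and Robo3, and no interval reached below -0.56 or above 0.53. A p above the threshold does not show that a gene was alike in both groups.

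**Figure D1:**
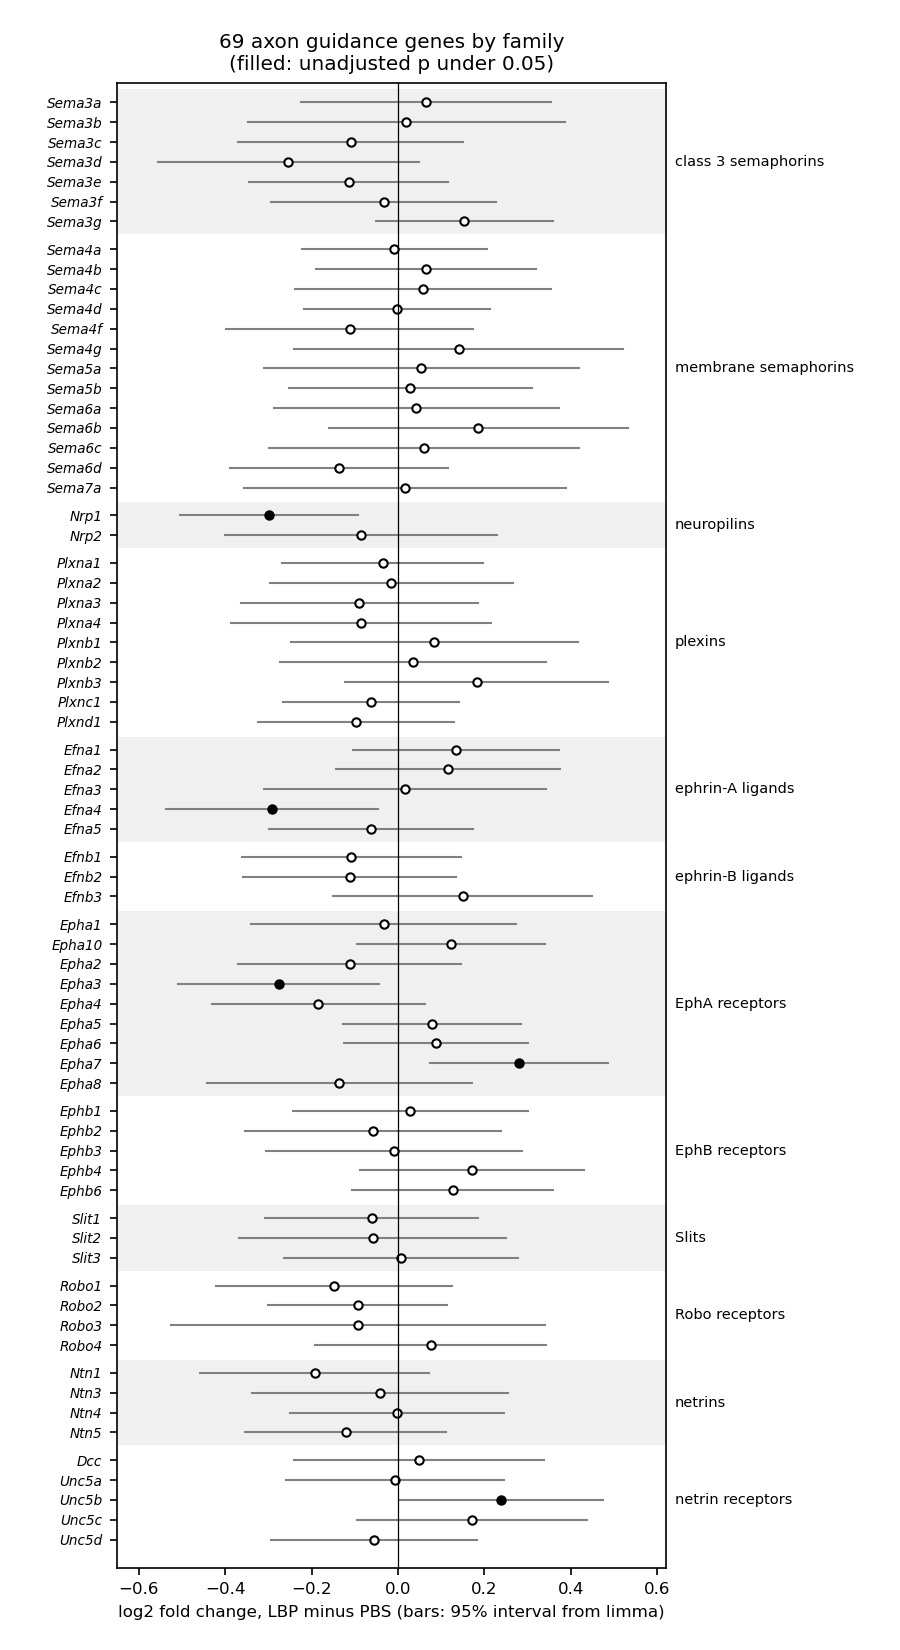
Log2 fold change (LBP minus PBS) of each of the 69 guidance genes with its 95% interval from limma, grouped by family. Filled circles mark the 5 genes with an unadjusted p under 0.05, and the values lie between -0.30 and 0.28.

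The 3 LBP values lay wholly on 1 side of the 3 PBS values in 8 of 69 members, or 11.6%, where 9.63% of all genes did so. They were higher after LBP for Epha7, Unc5b, Sema3g, Epha10 and Epha5 (5 members, 7.25%, beside 4.35% of all genes) and lower for Nrp1, Efna4 and Epha3 (3 members, 4.35%, beside 5.28%). With 3 arrays against 3, an exact two-sided permutation test of a single gene cannot go below 0.1, the value these 8 genes had. Receptors made up 6 of the 8 genes and ligands 2.

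**Figure D2:**
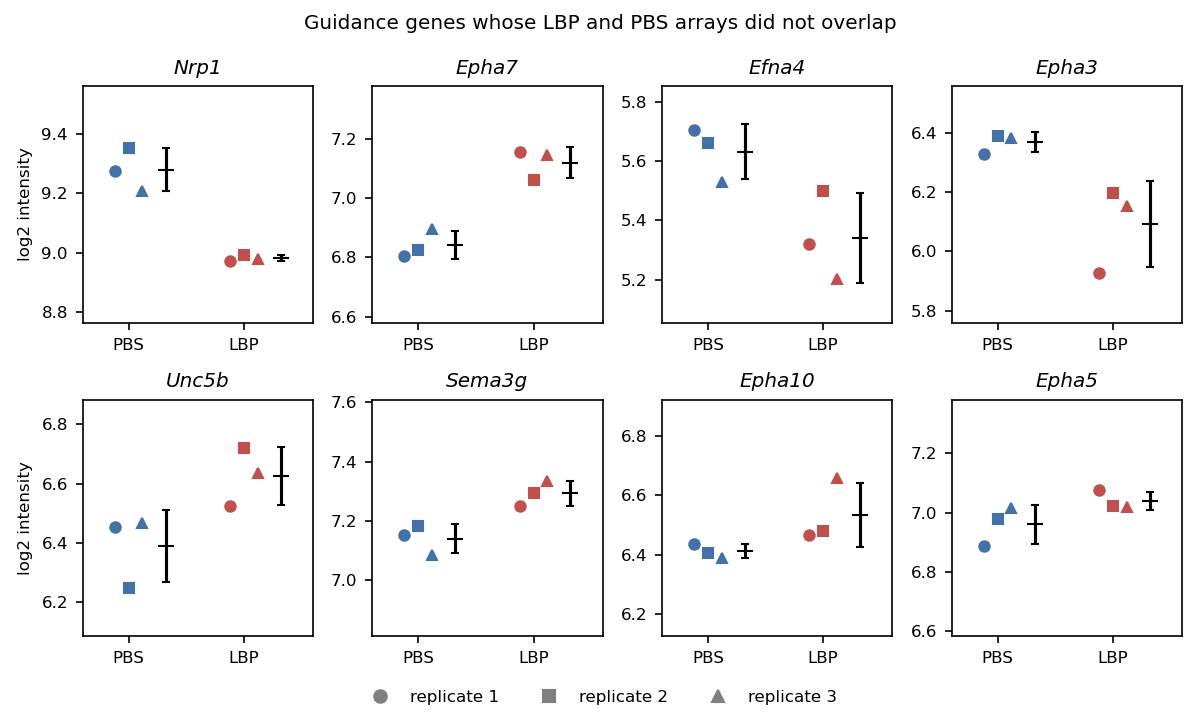
Log2 intensity of the 8 guidance genes whose LBP and PBS arrays did not overlap, 1 symbol per array, with the group mean and SD (n = 3 arrays) as a bar. All panels have the same scale length. The LBP arrays of Nrp1 lie together at 8.97 to 8.99, and the closest LBP and PBS values of Epha5 are 7.02 and 7.01.

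Nrp1 encodes neuropilin-1, the binding subunit of the Sema3a receptor, which also binds vascular endothelial growth factor. Its log2 intensity was 8.97, 8.99 and 8.98 on the LBP arrays and 9.28, 9.35 and 9.21 on the PBS arrays. The LBP arrays were nearly equal and all lay below every PBS array, with group means of 8.98 ± 0.01 and 9.28 ± 0.07 (SD, n = 3 each). The log2 fold change was -0.30 (standard error 0.09, adjusted p = 0.999, exact permutation p = 0.1), which is a 1.23-fold lower mean after LBP. In the 12 alternative fits it ran from -0.33 to -0.26, with an unadjusted p under 0.05 in each, and by p Nrp1 ranked at 208 of 24623 genes.

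Nrp2, the other neuropilin and the preferred partner of Sema3f, did not show the same separation. Its values were 8.12, 8.53 and 8.15 after LBP and 8.52, 8.40 and 8.14 after PBS, and the ranges overlapped almost wholly. Its log2 fold change of -0.09 had a 95% interval of -0.40 to 0.23. LBP replicate 2 was its highest array, and the change was -0.22 without that array and -0.00 without PBS replicate 1. The difference between the changes of the neuropilins was not tested.

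The promoters of Nrp1, Epha3 and Epha7 are shown because these receptors had the lowest p in each direction (Nrp1 and Epha7), with Epha3 as the member of the Epha7 family that differed in the opposite direction. They are the 250 bases before the annotated start of each gene, 5′ to 3′ on the strand of the gene, from RefSeq on GRCm38.p6: chr8:128358823-128359072 (plus strand) for Nrp1, chr16:63864176-63864425 (minus strand) for Epha3 and chr4:28812881-28813130 (plus strand) for Epha7. Capitals mark GC boxes (GGGCGG) and CCAAT boxes (CCAAT) on either strand; the motifs do not overlap each other. They are reference sequences and were not measured here.
Nrp1: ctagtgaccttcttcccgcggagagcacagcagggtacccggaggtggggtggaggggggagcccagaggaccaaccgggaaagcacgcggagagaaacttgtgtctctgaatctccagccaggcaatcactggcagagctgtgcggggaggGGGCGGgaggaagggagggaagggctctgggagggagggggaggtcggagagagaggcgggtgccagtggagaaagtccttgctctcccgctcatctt
Epha3: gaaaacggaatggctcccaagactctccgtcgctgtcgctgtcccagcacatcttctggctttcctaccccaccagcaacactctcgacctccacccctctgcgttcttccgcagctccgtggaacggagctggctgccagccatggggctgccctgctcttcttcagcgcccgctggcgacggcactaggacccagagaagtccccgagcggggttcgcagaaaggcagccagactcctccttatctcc
Epha7: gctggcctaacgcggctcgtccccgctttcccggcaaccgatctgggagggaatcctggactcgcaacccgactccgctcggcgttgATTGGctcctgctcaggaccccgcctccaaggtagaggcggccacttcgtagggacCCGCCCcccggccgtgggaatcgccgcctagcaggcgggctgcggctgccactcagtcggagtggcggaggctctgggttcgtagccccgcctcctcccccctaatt
The Nrp1 window holds 1 GC box and no CCAAT box, the Epha7 window 1 of each, and these letters are in neither orientation of the Epha3 window. Bases G and C make up 64.4% of the Nrp1, 62.8% of the Epha3 and 69.2% of the Epha7 window. Of the 69 members, 59 had a window in this table; 43 of these (72.9%) held a GC box and 15 (25.4%) a CCAAT box, beside 32.9% and 34.5% of the 27025 windows of all genes, non-coding genes included. A match is a run of letters and does not show binding.

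Among the EphA receptors, members differed in opposite directions. Epha7 and Epha3 bind ephrin-A ligands and are best known for topographic mapping of axons. Log2 intensity of Epha7 was 7.15, 7.06 and 7.15 after LBP and 6.80, 6.82 and 6.89 after PBS, so that the nearest arrays of the groups were 0.17 apart. The means were 7.12 ± 0.05 and 6.84 ± 0.05 (SD, n = 3 each). The change of 0.28 (standard error 0.09, adjusted p = 0.999, exact permutation p = 0.1) is a 1.21-fold higher mean after LBP. It ran from 0.26 to 0.31 in the 12 alternative fits, with an unadjusted p under 0.05 in each.

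Epha3 was at 5.93, 6.20 and 6.15 after LBP and at 6.33, 6.39 and 6.38 after PBS. The PBS arrays were close together, and LBP replicate 1 was the lowest. The log2 fold change was -0.28 (standard error 0.10, adjusted p = 1.00, exact permutation p = 0.1), a 1.21-fold lower mean. The unadjusted p was above 0.05 when LBP replicate 1 (change of -0.19), PBS replicate 2 (-0.26) or PBS replicate 3 (-0.27) was left out. LBP replicate 1 was also the lowest array for fibroblast markers, whose median relative to the PBS mean was -0.61, with -0.19 to 0.24 elsewhere. It was the lowest array as well for Schwann cell (-0.24), macrophage (-0.24) and central nervous system markers (-0.07). For markers of DRG neurons, satellite glia, vessels and skeletal muscle it was not the lowest. Of 14 fibroblast markers 13 had negative changes, with a median of -0.21. The part of any of these cell types in the values of Epha3 was not tested.

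The other EphA receptors were closer to 0. Epha10, which has no active kinase, was at 6.46, 6.48 and 6.66 after LBP and at 6.44, 6.41 and 6.39 after PBS, a change of 0.12 that was 0.06 without LBP replicate 3. Epha5 was at 7.08, 7.02 and 7.02 after LBP and at 6.89, 6.98 and 7.01 after PBS (change of 0.08), and its groups were apart by 0.0046. Epha4, a receptor that binds ephrins of both classes, was at 6.76, 6.97 and 6.69 after LBP and at 7.05, 7.06 and 6.87 after PBS. Its LBP replicate 2 lay inside the PBS range. The change was -0.18, and without that array it was -0.26, with an unadjusted p under 0.05. Epha1, Epha2, Epha6 and Epha8 had changes of -0.14 to 0.09 and overlapped between the groups.

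Ephrin-A ligands are bound to the membrane by a lipid anchor. Efna4 was at 5.32, 5.50 and 5.20 after LBP and at 5.71, 5.66 and 5.53 after PBS. On every array it lay below the median (6.45 to 6.46) but above the lower quartile (5.04 to 5.05). The groups were apart by 0.03 between LBP replicate 2 and PBS replicate 3, with means of 5.34 ± 0.15 and 5.63 ± 0.09 (SD, n = 3 each). The change was -0.29 (standard error 0.11, adjusted p = 1.00, exact permutation p = 0.1). It was -0.28 when LBP replicate 1 was left out, -0.22 when LBP replicate 3 was, -0.25 when PBS replicate 1 was and -0.28 when PBS replicate 2 was, in each case with an unadjusted p above 0.05.

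Efna1, Efna3 and Efna4 lie side by side on chromosome 3, and they did not share a direction. Their log2 fold changes were 0.13, 0.02 and -0.29. Efna2 was at 0.12, and Efna5, a repellent for mapping axons, at -0.06 with LBP values of 7.64 to 7.90 and PBS values of 7.77 to 7.95. The ephrin-B ligands span the membrane and signal in both directions. Efnb2, known for its role in vessels and in axon guidance, was at 8.31, 8.50 and 8.27 after LBP and at 8.52, 8.57 and 8.32 after PBS, a change of -0.11 with groups that overlapped. Efnb1 had a change of -0.11 as well, and Efnb3 one of 0.15, which was 0.01 without LBP replicate 2.

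No EphB receptor separated the groups. Ephb2 was at 6.41 to 6.68 after LBP and 6.40 to 6.86 after PBS, with a change of -0.06 and a 95% interval of -0.35 to 0.24. Ephb4, the receptor of Efnb2 on veins, had the largest change of this family, at 0.17 (6.59, 6.93 and 6.79 after LBP, 6.70, 6.63 and 6.47 after PBS). Leaving out LBP replicate 2 gave 0.09, PBS replicate 3 gave 0.11 and LBP replicate 1 gave 0.26. Ephb6, which lacks kinase activity, had a change of 0.13, Ephb1 one of 0.03 and Ephb3 one of -0.01.

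Of the secreted semaphorins, only Sema3g separated the groups, with an unadjusted p above 0.05. Sema3g, which binds Nrp2, was at 7.25, 7.29 and 7.33 after LBP and at 7.15, 7.18 and 7.08 after PBS, a change of 0.15 (standard error 0.09). Sema3d had the largest change of the class, at -0.25, with LBP values of 6.86, 6.82 and 7.13 and PBS values of 7.07, 7.45 and 7.05. PBS replicate 2 was its highest array, and without that array the change was -0.12. When LBP replicate 3 was left out it was -0.35, with an unadjusted p under 0.05. Sema3a, the classic repellent of sensory axons, was dim and lay below the lower quartile of every array. It was at 4.26, 4.68 and 4.22 after LBP and at 4.30, 4.32 and 4.35 after PBS, so that its change of 0.07 came from LBP replicate 2 and was -0.08 without it. Sema3d and Sema3a are neighbours on chromosome 5. Sema3b, Sema3c, Sema3e and Sema3f had changes of -0.11 to 0.02.

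Membrane semaphorins had 9 positive and 4 negative changes, and no member separated the groups. Sema7a, which is lipid-anchored and promotes axon growth through integrins, was at 8.58, 8.53 and 8.16 after LBP and at 8.76, 8.17 and 8.29 after PBS. Both groups ranged widely, and the change of 0.02 had a 95% interval of -0.36 to 0.39. Sema6b had the largest change, 0.19 (6.25, 6.77 and 6.33 after LBP, 6.36, 6.03 and 6.40 after PBS), with LBP replicate 2 highest and a change of 0.02 without it. Sema6d, a ligand of Plxna1, was at -0.14. The remaining members, including Sema4d, a ligand of Plxnb1, had changes of -0.11 (Sema4f) to 0.14 (Sema4g).

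Plexins, the signalling subunits of semaphorin receptors, had 3 positive and 6 negative changes. Plxna4, which transmits the Sema3a signal with Nrp1 in sensory neurons, was at 8.47, 8.73 and 8.39 after LBP and at 8.85, 8.56 and 8.43 after PBS. The groups overlapped, and the change was -0.09 with a 95% interval of -0.39 to 0.22. Plxna1, Plxna2 and Plxna3 had changes of -0.03, -0.02 and -0.09, each smaller than its standard error. Plxnc1, the receptor of Sema7a, was among the most even members, at 11.06 to 11.16 after LBP and 11.14 to 11.19 after PBS, with a change of -0.06. Plxnd1, the receptor of Sema3e, was at -0.10. Plxnb3 had the largest change, 0.18 (7.32, 7.68 and 7.16 after LBP, 7.18, 7.12 and 7.32 after PBS), which was 0.04 without LBP replicate 2.

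Slits and their receptors were alike in that no gene separated the groups. Slit2, a repellent that also promotes branching of sensory axons, was at 8.76, 9.16 and 8.85 after LBP and at 9.14, 9.05 and 8.76 after PBS, a change of -0.06 with a 95% interval of -0.37 to 0.25. Slit1 had a change of -0.06 and Slit3 one of 0.01. Robo2 was at 10.41, 10.41 and 10.34 after LBP and at 10.51, 10.52 and 10.41 after PBS. Its overlap was slight, with LBP replicates 1 and 2 (10.4107 and 10.4087) just above PBS replicate 3 (10.4068). The change of -0.09 had a 95% interval of -0.30 to 0.11. Robo1, its neighbour on chromosome 16, had a change of -0.15 (7.85, 8.25 and 8.03 after LBP, 8.25, 8.27 and 8.05 after PBS). Single arrays moved this value, to -0.05 without LBP replicate 1 and to -0.25 without LBP replicate 2. Robo3, a receptor of commissural axons, was dim on every array and had the largest standard error of the members, 0.19. Robo4, found on vessels, had a change of 0.08.

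All 4 netrins had changes below 0, none with an unadjusted p under 0.05. Ntn1, the main attractant of this family, was at 6.93, 7.15 and 6.91 after LBP and at 7.05, 7.38 and 7.14 after PBS. LBP replicate 2 lay inside the PBS range, and the change was -0.19 (standard error 0.12). PBS replicate 2 was the highest array, and without it the change was -0.10. Ntn5 was at -0.12, Ntn3 at -0.04 and Ntn4, a netrin of basement membranes, at -0.00.

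Unc5b, a repellent netrin receptor of neurons and vessels, had higher values after LBP. It was at 6.52, 6.72 and 6.64 after LBP and at 6.45, 6.25 and 6.47 after PBS, with means of 6.63 ± 0.10 and 6.39 ± 0.12 (SD, n = 3 each). LBP replicate 1 lay 0.06 above PBS replicate 3. The change of 0.24 (standard error 0.11, adjusted p = 1.00, exact permutation p = 0.1) is a 1.18-fold higher mean, and its 95% interval began at 0.00. The unadjusted p was above 0.05 when any array other than LBP replicate 1 was left out, while the change was then between 0.17 (no PBS replicate 2) and 0.28 (no PBS replicate 3). It was also above 0.05 with an intensity trend in the variance, where the change stayed at 0.24, and with array weights, where it was 0.19.

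The other netrin receptors overlapped between the groups. Unc5c was at 8.22, 8.32 and 8.02 after LBP and at 8.12, 7.83 and 8.08 after PBS, a change of 0.17 that was 0.08 without PBS replicate 2. Dcc was at 5.71, 5.99 and 5.63 after LBP and at 5.88, 5.54 and 5.77 after PBS, a change of 0.05. LBP replicate 2 was its highest array and PBS replicate 2 its lowest, and the ranges overlapped. Unc5a had a change of -0.01 and Unc5d one of -0.06.

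The median of the guidance genes differed from array to array and was highest on LBP replicate 2. As deviations from the PBS mean of each gene, the median member was at 0.11 on LBP replicate 2, -0.04 on LBP replicate 1 and -0.08 on LBP replicate 3. On the PBS arrays it was at 0.06, -0.01 and -0.07 in the order of the replicates, while the median of all genes stayed between -0.01 and 0.01 on all 6 arrays. Families differed in this. On LBP replicate 2 the median was 0.26 for netrin receptors and -0.05 for neuropilins. On LBP replicate 1 it was 0.07 for ephrin-A ligands, -0.20 for Robo receptors and -0.27 for neuropilins. LBP replicate 2 gave the highest value of 25 of 69 members (36.2%), beside 20.1% of all genes. It gave the lowest value of 5 members (7.2%), beside 19.3% of all genes. PBS replicate 1 leaned the same way, with the highest value of 24.6% of members and 18.4% of all genes. It had the lowest value of 4.3% of members and 15.9% of all genes. The median SD over the LBP arrays was 0.15 for members and 0.13 for all genes, and over the PBS arrays 0.12 and 0.11.

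The members that stood out on LBP replicate 2 were mostly semaphorins and B plexins. On that array 11 members (15.9%) lay more than 0.2 above each of the other 5 arrays, a margin chosen after the values were seen, and 3.29% of all genes did. These were Sema4g, Sema6b, Sema6c, Plxnb3, Sema3a, Sema5a, Efnb3, Sema4c, Plxnb2, Plxnb1 and Sema3b. Sema4g was at 7.22 there and at 6.54 to 6.77 elsewhere, and Sema5a at 9.61 there and at 8.95 to 9.31 elsewhere. This was the array on which the median of the 12 central nervous system markers was high. Among them Mobp, a myelin gene of oligodendrocytes, was above its values on the other arrays (5.97 to 6.38). Mog, Gfap, Aqp4, Olig2, Gad2, Slc6a5 and Opalin were also highest on LBP replicate 2. The rest of the list did not follow. Hapln2 was highest on LBP replicate 1, Chat and Mnx1 were highest on LBP replicate 3, and Gad1 was lowest on LBP replicate 2. The 11 markers of Schwann cells and myelin had a median of 0.53 above the PBS mean on LBP replicate 2, with -0.24 to 0.02 elsewhere. The part of these markers in the values of the guidance genes was not tested.

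**Figure D3:**
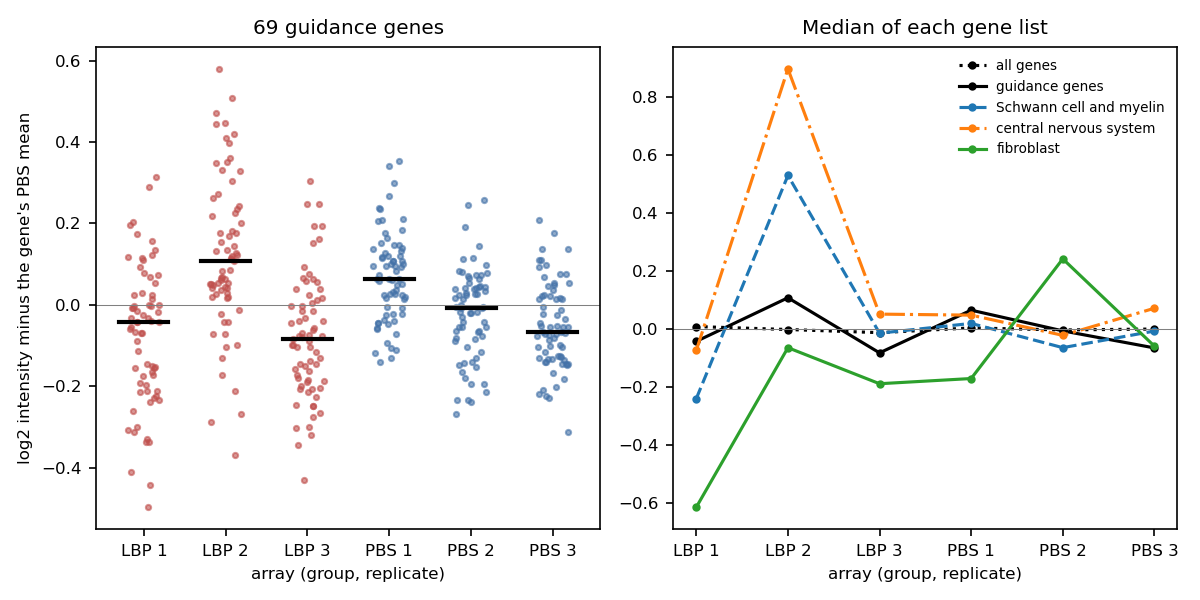
Left, log2 intensity of each of the 69 guidance genes minus its PBS mean on the 6 arrays, with the median as a bar. Right, the same median for all genes, guidance genes and 3 marker lists; on LBP replicate 2 the guidance genes are at 0.11 and central nervous system markers at 0.90.

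Without LBP replicate 2 the members leaned lower, which follows from leaving out the array with the highest median member. The median log2 fold change was then -0.08 over the members, with 17 above 0 and 52 below, while 51.2% of all genes were below 0 (median -0.00). Nrp1 was at -0.30 and Epha7 at 0.31 without that array. Sema4g went from 0.14 to -0.08 and Sema5a from 0.05 to -0.14. With all arrays the median of the members was -0.01, and the SD of the array medians within the groups was 0.08. The members share arrays, and the array was chosen for its high values, so that these counts are only a description.

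**Figure D4:**
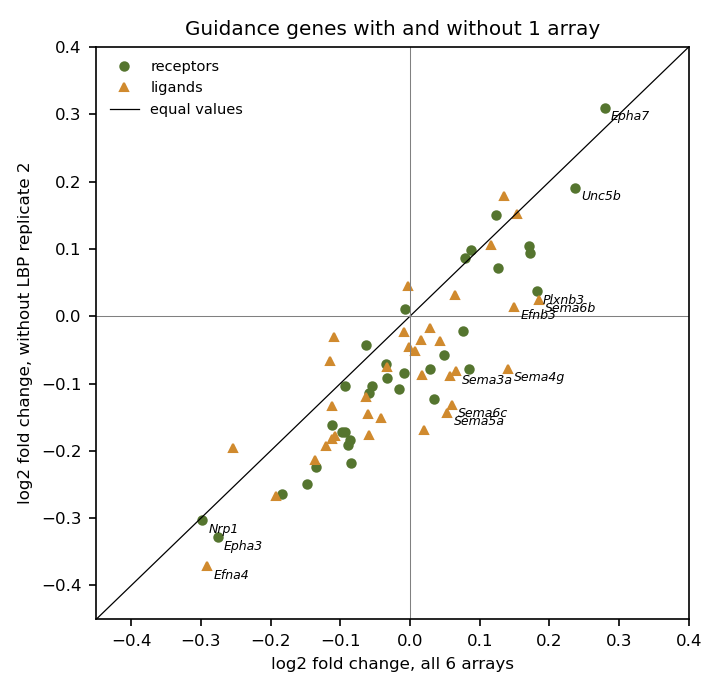
Log2 fold change of the 69 guidance genes with all 6 arrays (horizontal) and without LBP replicate 2 (vertical), with ligands as triangles and receptors as circles. Most points lie below the line of equal values, which follows from leaving out the array with the highest median member. On the vertical axis 52 of 69 lie below 0.

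Ligands and receptors had medians close to that of all genes, while their counts of low p differed. The 35 ligands had a median log2 fold change of -0.00, and 1 (Efna4, 2.86%) had an unadjusted p under 0.05, beside 4.72% of all genes. The 34 receptors had a median of -0.02, with 4 (11.8%) under that p (Nrp1, Epha3, Epha7 and Unc5b). The groups did not overlap in 5.71% of ligands and 17.6% of receptors, beside 9.63% of all genes, and the difference between ligands and receptors was not tested. Every ligand and receptor family other than the 2 neuropilins had a median between -0.11 and 0.05. A list of 53 further genes of these pathways, such as collapsin response mediators and Slit-Robo GTPase regulators, gave a median of 0.00, with 28 positive and 25 negative changes. In that list 2 genes (3.77%) had an unadjusted p under 0.05, beside 4.72% of all genes. Both were lower after LBP and 0 were higher, where 2.65% of all genes were lower and 2.07% higher at that p. Crmp1, a collapsin response mediator that carries the Sema3a signal, was at 10.55, 10.72 and 10.38 after LBP and at 10.85, 10.80 and 10.78 after PBS. Its change was -0.26, and all LBP arrays lay below the PBS arrays. Cd72, a receptor of Sema4d on immune cells, had a change of -0.27. The adjusted p of both was at least 0.999.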

How the data were processed

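Total RNA of L4/5 DRGs from 3 LBP and 3 PBS samples had been hybridized to GeneChip Mouse Gene 2.0 ST arrays. The authors summarized probes in R with the expresso function and MAS5, checked samples for outliers by their correlations and applied quantile normalization, and the deposited table holds log2 intensities with 1 value per gene symbol. For software versions and genome build: not given in the sources used here. Columns with the authors' own fold changes, test statistics and p-values were not used. Of 24647 rows, 24 with symbols turned into dates were left out, and 24623 genes were tested.

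Tests of treatment were two-sided and came from limma 3.58.1 under R 4.3.3 (lmFit, then eBayes), and p-values were adjusted by Benjamini-Hochberg over all genes. The fit was first tested on simulated data. Groups were called not overlapping when all 3 LBP values lay on 1 side of all 3 PBS values. The 69 members were found by symbol, and all 69 are RefSeq symbols of GRCm38.p6 on the same chromosome as in the table. Neighbours were taken from that annotation. Figures were drawn with matplotlib 3.10.9.

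Named were members with an unadjusted p under 0.05 or without overlap, the largest change in each of the 12 families, and textbook genes (28 in all); the members beyond these are named for completeness, by family. Members, gene lists and marker lists were chosen with earlier results of these data known. Alternatives were leaving out dim genes, a variance trend, robust eBayes, array weights, median re-centring, a replicate block and leaving out each array. The number of arrays limits the precision.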

Additional observations from a re-analysis of the deposited data

How the results depend on the processing

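Counts and directions of the guidance genes were recomputed in 12 alternative fits. No member passed an adjusted p of 0.05 in any of them. The count at an unadjusted p under 0.05 was 5 in the main fit, where 4.72% of all genes reached that p. It was 4 with the variance trend (4.71% of all genes), with array weights (6.43%) and with the replicate block (5.30%). When each array was left out in turn it ran from 2 to 5, where 3.93% to 6.34% of all genes reached that p. The lowest counts were 2 without PBS replicate 2 and 3 without LBP replicate 1, PBS replicate 1 or PBS replicate 3. The count without overlap was 8 of 69 in the main fit, beside 9.63% of all genes. With fewer arrays overlap is rarer by construction. The count was 20 without LBP replicate 2 (23.3% of all genes), 18 without PBS replicate 3 (17.2%) and 14 without LBP replicate 3 (18.3%). It was 10 without LBP replicate 1 (20.1%), PBS replicate 1 (18.7%) or PBS replicate 2 (18.5%). The median log2 fold change of the members ran from -0.08 without LBP replicate 2 to 0.04 without PBS replicate 1.

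Of the 28 named genes, 8 changed sign when 1 array was left out, all with small changes: Sema7a (-0.10 to 0.19), Ephb2 (-0.17 to 0.0605), Slit2 (-0.18 to 0.023), Sema3a (-0.0816 to 0.15), Dcc (-0.058 to 0.12), Efna5 (-0.12 to 0.0093), Slit1 (-0.14 to 0.0331) and Plxna4 (-0.18 to 0.0327). Calls were lost for Efna4, Epha3 and Unc5b and gained for Epha4 and Sema3d in fits given beside these genes. The cause was not tested. The labels do not say that replicate numbers pair the samples, and deviations of same-numbered arrays correlated at 0.11, -0.03 and 0.08. The replicate block left the unadjusted p of Unc5b above 0.05 and changed no other call.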
